A study of Homo sapiens with 4 samples.

Results

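Expression of 9 genes of the tight junction and of epithelial polarity was compared between control cells and cells depleted of hnRNPM, a nuclear RNA-binding protein known as a regulator of splicing. The 9 genes, CGN, CLDN1, CLDN4, CLDN7, OCLN, TJP1, F11R, LLGL2 and PARD3, were taken by name from a table of 36525 Ensembl genes, whatever their level. All 9 were found in it through their current symbols. The cells were LM2, a clonal line that forms lung metastases and was derived from MDA-MB-231, a mesenchymal human breast cancer line. RNA-seq of total RNA was made from 2 libraries labelled control and 2 labelled hnRNPM KD (knockdown), all from cells collected 48 h after plating. The growth protocol describes cells that express an shRNA, whereas the treatment label of the knockdown libraries and the series design name an siRNA, so the word knockdown is used for either. The sources used here do not give what the control cells received. The labels do not say that libraries of 1 group came from separate cultures, so the p-values measure only the spread between these 4 libraries, which may be technical.

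Tight junctions close the space between neighbouring epithelial cells near their apical side. Claudins, occludin and junctional adhesion molecules span the membrane, and a cytoplasmic plaque of scaffold proteins such as ZO-1 and cingulin ties them to actin. The Par, Crumbs and Scribble complexes set the apical and basolateral domains and place the junction between them. Epithelial cells lose much of this machinery when they take on a mesenchymal form, and transcription factors of the Snail and ZEB families repress several of its genes through the E-box CAGGTG.

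Of the 9 genes 6 were high enough to be tested. After knockdown, 3 of these passed as higher, beside 14.7% of all genes tested, and 1 as lower, beside 21.8%. CGN was high enough only through its knockdown level, so these counts describe the 6 genes and support nothing about the 9. CGN, which codes for the plaque protein cingulin, rose 7.67-fold in mean RPKM (reads scaled by gene length and by a read total, so a level per length). LLGL2, a polarity gene of the basolateral side, rose 4.29-fold, and TJP1, which codes for ZO-1, rose 1.40-fold. The claudin gene CLDN7 fell to a mean of 2.06 RPKM from 3.52 RPKM. CGN and LLGL2 also passed with any 1 library left out, whereas TJP1 lost its call without any 1 of the 4 libraries and CLDN7 without any 1 of 3. CLDN1 had a mean RPKM 5.16 times as high after knockdown, but its level was below the minimum for the main test. OCLN and F11R had overlapping values in the 2 groups.

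The promoter sequences of the claudin genes and of CGN are shown first, because these 4 genes include the highest fold change of the 9 (CGN), the one decrease that passed (CLDN7) and, with CLDN1 and CLDN4, all the claudins among them. Each is the stretch of 250 bases before a RefSeq transcription start, 5′ to 3′ on the gene's own strand, in the human build GRCh38.p14. That build differs from hg19, to which the deposited values refer, and these coordinates belong to GRCh38.p14 only. Capitals mark CAGGTG and CACCTG, which are the same E-box read on either strand. The CGN window is chr1:151511137-151511386 (plus strand), that of CLDN1 is chr3:190322447-190322696 (minus strand), and that of CLDN4 is chr7:73830746-73830995 (plus strand). The CLDN7 window shown is chr17:7262479-7262728 (minus strand).
CGN: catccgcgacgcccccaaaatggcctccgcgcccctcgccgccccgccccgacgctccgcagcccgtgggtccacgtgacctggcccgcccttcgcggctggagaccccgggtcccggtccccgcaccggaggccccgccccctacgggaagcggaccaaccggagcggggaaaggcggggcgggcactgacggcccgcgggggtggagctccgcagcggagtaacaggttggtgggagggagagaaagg
CLDN1: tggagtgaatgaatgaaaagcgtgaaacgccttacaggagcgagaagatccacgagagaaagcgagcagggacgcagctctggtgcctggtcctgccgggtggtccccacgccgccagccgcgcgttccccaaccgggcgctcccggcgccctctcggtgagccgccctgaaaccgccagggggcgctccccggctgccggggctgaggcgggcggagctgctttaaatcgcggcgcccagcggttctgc
CLDN4: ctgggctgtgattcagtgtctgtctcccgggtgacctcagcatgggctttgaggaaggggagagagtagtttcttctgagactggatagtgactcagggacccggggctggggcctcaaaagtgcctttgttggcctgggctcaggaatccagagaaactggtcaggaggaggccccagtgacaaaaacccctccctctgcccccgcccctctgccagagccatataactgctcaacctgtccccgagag
CLDN7: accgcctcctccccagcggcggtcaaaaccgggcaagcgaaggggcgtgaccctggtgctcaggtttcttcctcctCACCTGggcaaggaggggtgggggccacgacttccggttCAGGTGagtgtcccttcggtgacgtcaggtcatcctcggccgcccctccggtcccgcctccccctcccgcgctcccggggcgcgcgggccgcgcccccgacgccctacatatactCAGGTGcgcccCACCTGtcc

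The CLDN7 window held the motif 4 times, with first bases 174, 135, 20 and 9 bases before the start. A second CLDN7 window, chr17:7263214-7263463, held it 0 times. The windows of CGN, CLDN1 and CLDN4 held it 0 times. OCLN had 1 match in each of its 2 windows and TJP1 had 1 match in 1 of its 4 windows. Among 35116 such windows of 27305 genes, 17.5% held the motif at least once and 0.122% (43 windows) held it 4 or more times. These matches describe letters only, and binding was not measured here. F11R, LLGL2 and PARD3 had no entry by symbol in the promoter table.

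The smallest steps between RPKM values gave the same read total for the 2 libraries of a group, 41.9 M for control and 29.7 M for knockdown, so depth may not have been scaled out library by library. Reads estimated from these steps summed to between 16.5 M and 26.6 M per library, and replicate 2 of each group was the deeper. For that reason a fit after median-ratio scaling, which brings the libraries to a common level, is given for the 9 genes wherever it changes a call, and as counts for the gene lists. HNRNPM, the targeted gene, had 88.6 and 102 RPKM in the control libraries and 11.5 and 13.0 RPKM in the knockdown libraries (log2 fold change −2.91). Among markers fixed to check the line, all 5 mesenchymal ones (VIM, CD44, FN1, ZEB1 and AXL) reached 1 RPKM in it. The 8 luminal epithelial markers summed to 16.6 and 18.7 RPKM in the control and 26.4 and 29.4 RPKM in the knockdown libraries. KRT8 and KRT18, keratins of simple epithelia, rose by 0.81 and 0.84 on the log2 scale. In GENCODE 29 their exons share 525 bases on opposite strands, and whether counting used strand is not known. CDH1, the epithelial cadherin, was at or below 0.0774 RPKM under control conditions and had 0.717 and 0.990 RPKM after knockdown. ELF3, an epithelial transcription factor, had 0.0863 and 0.0830 RPKM in control and 0.769 and 0.816 RPKM in knockdown libraries. Of the ELF3 exon bases, 9.23% are shared with a gene model on the other strand and 9.23% with another on the same strand. Reads over those bases cannot be told apart. The other 4 luminal markers, EPCAM, KRT19, GATA3 and ESR1, had overlapping values in the 2 groups, with ESR1 at or below 0.0322 RPKM. KRT8, KRT18, CDH1 and ELF3 were thus higher in the same libraries as CGN, LLGL2 and TJP1, and their part in those results was not tested. Of the leukocyte markers only CD68 reached 1 RPKM, at 26.1 and 29.1 RPKM in control and 7.69 and 8.75 RPKM in knockdown libraries. In GENCODE 29, 81.7% of the CD68 exon bases are shared with another gene model on the same strand, so its level is uncertain. PTPRC, which defines leukocytes, was at or below 0.0158 RPKM, and 0 of the 4 endothelial markers in the table reached 1 RPKM. In bulk RNA, fewer cells of a type and less RNA per cell cannot be told apart.

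**Figure D1:**
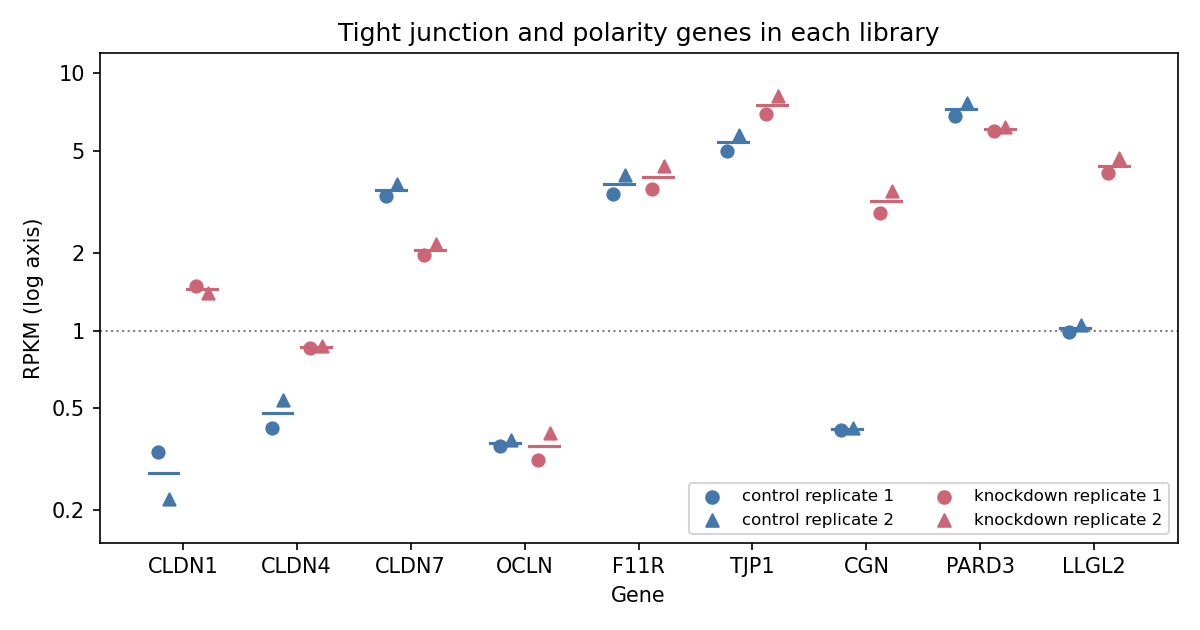
RPKM of each of the 9 genes (log axis) in the 2 control and 2 knockdown libraries. Points are single libraries, horizontal bars are group means and the dotted line marks 1 RPKM. The groups of CGN, LLGL2, CLDN1, CLDN4, CLDN7, TJP1 and PARD3 do not overlap, whereas those of OCLN and F11R do.

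Levels were tested as log2(RPKM + 0.5) with limma across the 13627 genes with a mean of at least 1 RPKM, and p-values were adjusted by Benjamini-Hochberg over all of them at a threshold of 0.05. Log2 fold changes are knockdown minus control on that scale, where changes of low genes come out too small, and their errors are standard errors (SE). limma found no spread of variances between genes beyond its trend, so very small p-values rest on a variance shared by all genes. CGN, CLDN7, F11R, TJP1, PARD3 and LLGL2 entered this test. CLDN1, CLDN4 and OCLN lay below the minimum, and for them the fit without a minimum over 31636 genes is given. The median log2 fold change of the 6 was 0.27, and that of all genes tested was −0.07. CGN, at 0.41 RPKM in the control libraries, was tested only through its knockdown level, so the counts of 3 higher and 1 lower describe the 6 genes and support nothing about the 9. The groups did not overlap in 5 of the 6, beside 66.8% of all genes tested: 3 had the higher values after knockdown, beside 28.0%, and 2 the lower, beside 38.8%. With median-ratio scaling the counts were 3 higher and 2 lower, beside 30.8% and 30.2% of all genes. Scaling also moved the balance over all genes, from 2000 higher and 2964 lower to 4192 higher and 4122 lower.

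Claudins are the proteins that seal the junction, and the differences of the 3 measured here did not share a sign. CLDN1, a claudin of barrier-forming epithelia, had 0.339 and 0.222 RPKM in the control libraries and 1.49 and 1.40 RPKM in the knockdown libraries. Both knockdown libraries lay above both control libraries, and the group means were 0.280 ± 0.0829 and 1.45 ± 0.0651 RPKM (SD, n = 2). These levels rest on an estimated 52 and 34 reads in control and 162 and 152 reads in knockdown libraries. Without a minimum level, limma gave a log2 fold change of 1.32 ± 0.13 (SE) with an adjusted p of 0.0527, just short of the threshold. Few genes pass in that fit, 0.828% as higher and 0.806% as lower. The lowest adjusted p that limma gave any gene in it was 0.0445, for HNRNPM, so every call there lies close to the threshold. In a fit with a minimum of 0.2 RPKM, added after the data were seen, CLDN1 passed with an adjusted p of 0.00263, beside 9.74% of 18916 genes called higher. It also passed without a minimum once the libraries were scaled (adjusted p = 0.0116) or the variance trend was left out (0.0422).

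CLDN4, a claudin that limits the passage of cations, had a lower level after knockdown than CLDN1 and a smaller difference. Its control libraries had 0.417 and 0.539 RPKM and its knockdown libraries 0.854 and 0.869 RPKM, from an estimated 82 to 121 reads per library. The groups did not overlap, and the means were 0.478 ± 0.0863 and 0.862 ± 0.0102 RPKM (SD, n = 2). CLDN4 did not pass without a minimum level (limma log2 fold change 0.48 ± 0.11, SE, adjusted p = 0.115) or with the minimum of 0.2 RPKM (adjusted p = 0.0568). It passed only when that added minimum was joined to median-ratio scaling (adjusted p = 0.0138) or when the values without a minimum were scaled (adjusted p = 0.0339).

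CLDN7, a claudin that is also found along the lateral membrane, was the highest of the 3 in the control libraries and went the other way. It had 3.33 and 3.70 RPKM in the control libraries and 1.96 and 2.16 RPKM in the knockdown libraries. Every control library lay above every knockdown library, with means of 3.52 ± 0.264 and 2.06 ± 0.140 RPKM (SD, n = 2). The limma log2 fold change was −0.65 ± 0.18 (SE, adjusted p = 0.00171), and −0.58 with an adjusted p of 0.00201 after scaling. The call ended without control replicate 2 (adjusted p = 0.0618), without knockdown replicate 1 (0.125), without knockdown replicate 2 (0.0511) and without a minimum level (0.0726). CLDN7 is the gene whose promoter window held 4 E-boxes, and no measurement here links the 2 facts. In GENCODE 29 its exons share 38 bases with ELP5 on the other strand, a gene that had 14.3 and 15.7 RPKM in control and 8.92 and 9.21 RPKM in knockdown libraries. The sources used here do not say whether counting used strand, so reads over those bases cannot be told apart. Its exons also share 269 bases with AC003688.1, for which no value was used here.

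Occludin, a membrane protein that steadies the junction and its regulation, was the lowest of the 9 after knockdown. OCLN had 0.357 and 0.374 RPKM in the control libraries and 0.314 and 0.399 RPKM in the knockdown libraries. The knockdown libraries lay on either side of both control libraries, and the means were 0.365 ± 0.0125 and 0.357 ± 0.0599 RPKM (SD, n = 2). No difference was detectable at an estimated 63 to 106 reads per library (limma without a minimum level, log2 fold change −0.02 ± 0.09, SE, adjusted p = 0.906). The sign itself turned after scaling, to 0.01. The OCLN pseudogene OCLNP1 had an estimated 1 read in each library.

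F11R codes for junctional adhesion molecule A, an immunoglobulin-like adhesion protein that recruits PARD3 to young junctions. It had 3.41 and 4.04 RPKM in the control libraries and 3.57 and 4.37 RPKM in the knockdown libraries. In each group replicate 2 was the higher, and the groups overlapped, with means of 3.73 ± 0.448 and 3.97 ± 0.567 RPKM (SD, n = 2). F11R did not pass (limma log2 fold change 0.08 ± 0.18, SE, adjusted p = 0.763; after scaling 0.15, adjusted p = 0.113). Its sign turned without control replicate 1 (−0.03) and without knockdown replicate 2 (−0.05). In GENCODE 29, 36.6% of its exon bases are shared with AL591806.3 on the same strand, so its level is uncertain where counting could split them.

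The 2 plaque genes both rose, and by unequal amounts. TJP1 codes for ZO-1, the scaffold that binds claudins, occludin and actin. It had 5.01 and 5.77 RPKM in the control libraries and 6.97 and 8.17 RPKM in the knockdown libraries. The knockdown libraries were both above the control libraries, with means of 5.39 ± 0.532 and 7.57 ± 0.851 RPKM (SD, n = 2). TJP1 passed with a limma log2 fold change of 0.45 ± 0.18 (SE, adjusted p = 0.0300), and with 0.52 after scaling (adjusted p = 0.00182). The call was lost whichever 1 library was left out, with adjusted p between 0.0955 and 0.482, and also without a variance trend (0.0645), without a minimum level (0.148) and with the added minimum of 0.2 RPKM (0.0740).

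Cingulin binds ZO-1 and joins the plaque to actomyosin and microtubules. CGN had 0.411 and 0.418 RPKM in the control libraries and a range that overlapped that of CLDN4. In the knockdown libraries it had 2.87 and 3.50 RPKM. The groups were far apart compared with the distance between libraries of 1 group, with means of 0.415 ± 0.0051 and 3.18 ± 0.443 RPKM (SD, n = 2). The estimated reads were 114 and 116 in control and 563 and 686 in knockdown libraries. Its limma log2 fold change was 2.0 ± 0.20 (SE, adjusted p = 3.28e-22), the highest among the 6 tested genes, and 2.05 with an adjusted p of 0.000551 after scaling. CGN passed with any 1 library left out, with log2 fold changes between 1.88 and 2.13, and also without a minimum level (adjusted p = 0.0466).

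The 2 polarity genes had differences of opposite sign. LLGL2, a homologue of the Drosophila polarity gene lethal giant larvae, acts with the Scribble complex and is phosphorylated by atypical protein kinase C. It had 0.989 and 1.05 RPKM in the control libraries and 4.09 and 4.67 RPKM in the knockdown libraries. Both knockdown libraries were well above both control libraries, with means of 1.02 ± 0.0452 and 4.38 ± 0.412 RPKM (SD, n = 2). LLGL2 rose with a limma log2 fold change of 1.68 ± 0.18 (SE, adjusted p = 6.42e-18) and, after scaling, of 1.74 (adjusted p = 0.000428). It passed with any 1 library left out and without a minimum level (adjusted p = 0.0466), as CGN did.

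PARD3 codes for the scaffold that brings PARD6 and atypical protein kinase C together at the junction. It had 6.83 and 7.65 RPKM in the control libraries and 5.97 and 6.21 RPKM in the knockdown libraries. The knockdown libraries were both below the control libraries, with means of 7.24 ± 0.581 and 6.09 ± 0.168 RPKM (SD, n = 2). The difference did not pass as deposited (limma log2 fold change −0.23 ± 0.18, SE, adjusted p = 0.317). It passed after scaling (−0.16, adjusted p = 0.0485), and again missed the threshold when scaling was joined to the minimum of 0.2 RPKM (adjusted p = 0.0573).

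**Figure D2:**
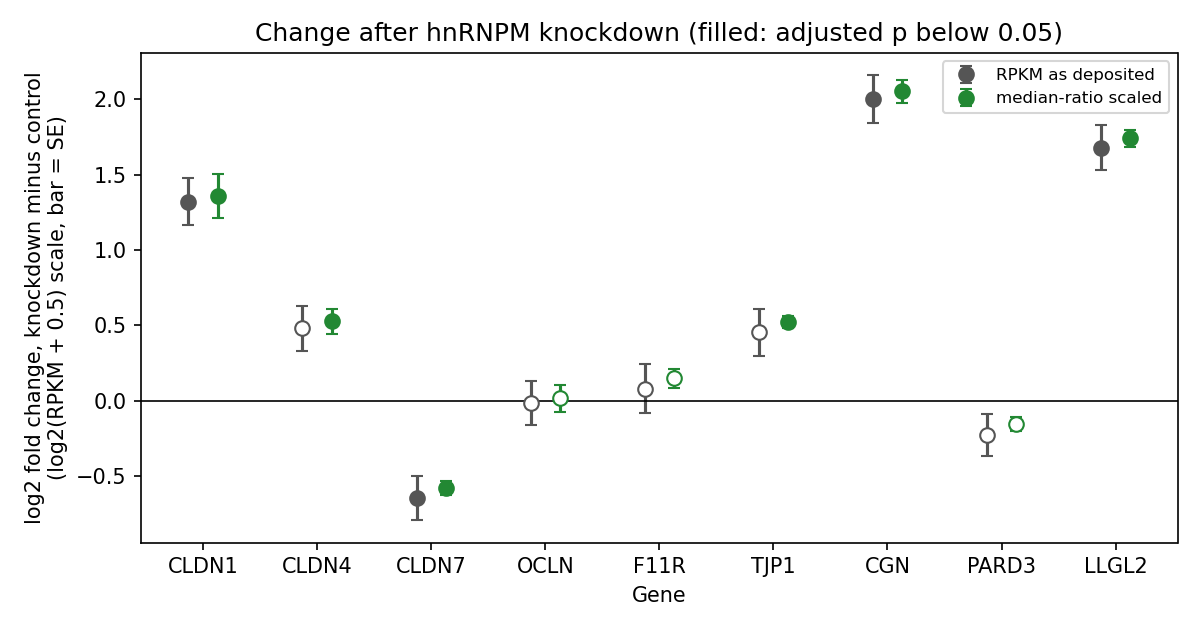
Log2 fold change (knockdown minus control, log2(RPKM + 0.5) scale) of the 9 genes in the limma fits with a minimum mean of 0.2 RPKM, on RPKM as deposited (grey) and after median-ratio scaling (green). Bars are SE and filled points have an adjusted p below 0.05. CGN, LLGL2 and CLDN1 lie highest and CLDN7 lowest, and CLDN4 and TJP1 are filled after scaling only.

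With the added minimum of 0.2 RPKM all 9 genes could be tested in 1 fit, shown in the plot of fold changes. In it CGN, LLGL2 and CLDN1 passed as higher and CLDN7 as lower (adjusted p = 0.0214), beside 9.74% and 14.9% of all genes. Scaling added CLDN4 and TJP1 as higher, which gave 5 higher and 1 lower, beside 24.6% and 25.3% of all genes. The estimates of log2 fold change differed little between the 2 fits, and the SEs of all 9 genes were smaller after scaling.

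**Figure D3:**
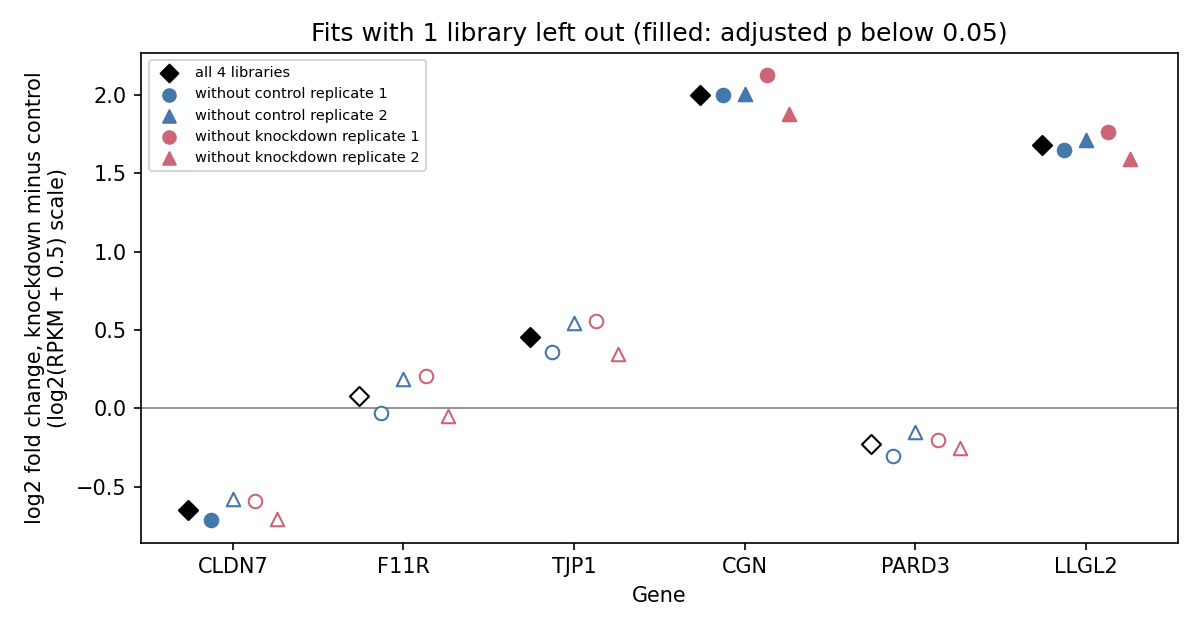
Log2 fold change of the 6 genes of the main test with all 4 libraries (diamonds) and with 1 library left out (circles, replicate 1; triangles, replicate 2; blue, control; red, knockdown). Filled points have an adjusted p below 0.05. CGN and LLGL2 are filled throughout, CLDN7 is filled with all libraries and without control replicate 1, and TJP1 is filled with all libraries only.

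RPKM is a level per length, so levels can be set side by side across genes, as far as counting treated the genes alike. How counting treated shared exon bases is not known. Of the F11R exon bases 36.6% are shared, so the place of F11R in the orders below is uncertain. In the control libraries PARD3 was the highest, followed by TJP1, F11R, CLDN7, LLGL2, CLDN4, CGN, OCLN and CLDN1. Neighbours in this order had separate ranges except F11R with CLDN7 and CLDN4 with CGN. In the knockdown libraries the order was TJP1, PARD3, LLGL2, F11R, CGN, CLDN7, CLDN1, CLDN4 and OCLN, and only LLGL2 and F11R had overlapping ranges. CGN thus moved above CLDN7, LLGL2 reached the level of F11R, and TJP1 moved above PARD3. CLDN1 and CLDN4, which bracketed CGN and OCLN in control libraries, stood next to each other after knockdown.

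The genes outside the 9 with profiles most like those of CGN and CLDN7 were sought over the 4 libraries, as the smallest distance between centred log2(RPKM + 0.5) profiles. For CGN they were CYP1A1 (distance 0.062), DNAJB4 (0.0984) and STX3 (0.119). For CLDN7 they were KLHL29 (0.0105), ING5 (0.0149) and CHST10 (0.0168). With 4 libraries in 2 groups, this likeness mainly ranks genes by the size of their difference between groups.

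Other genes of the junction and of polarity, from lists of known components, mostly did not pass. Of 90 listed genes 79 were in the table and 44 could be tested, and 4 of these passed as higher and 9 as lower, beside 14.7% and 21.8% of all genes. Their median log2 fold change was −0.07, the same as over all genes tested. After scaling 12 were higher and 16 lower, beside 30.8% and 30.2% of all genes. Of the genes named below from these lists, AMOTL1 and FRMD4A passed whichever 1 library was left out, as did CLDN22, and each of the others that passed lost its call at least once. CLDN22 had a mean of 0.930 RPKM in control and 1.96 RPKM in knockdown libraries and, like CGN, was tested only through its knockdown level. Whether the 9 genes differ from these lists was not tested.

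Among 7 other membrane proteins tested, 2 were higher and 2 lower, beside 14.7% and 21.8% of all genes. After scaling 3 were higher and 2 lower, beside 30.8% and 30.2%. CLDN12, a claudin linked to calcium transport, rose by 0.77 on the log2 scale (4.96 and 6.03 RPKM to 9.43 and 9.91 RPKM). The claudin gene CLDN22 had a log2 fold change of 0.78, but all its exon bases lie within exons of WWC2 on the other strand, which rose by 1.02, so the 2 cannot be told apart. ESAM, an adhesion molecule related to that of F11R, fell by 0.65 and CLDN23 fell by 0.63. LSR, a protein of the corners where cells meet, passed only after scaling (0.25). Of 2 further claudins, CLDN3 was at or below 0.212 RPKM in every library and CLDN19 was listed at 0.

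Among 16 other plaque proteins tested, 1 was higher and 3 were lower, beside 14.7% and 21.8% of all genes. After scaling 4 were higher and 7 lower, beside 30.8% and 30.2%. AMOTL1, an angiomotin that binds actin and Hippo pathway proteins, fell by 1.32 (12.1 and 13.8 RPKM to 4.58 and 5.16 RPKM). ARHGEF2, the RhoA exchange factor that cingulin can hold at the junction, fell by 0.75, and AFDN (afadin) fell by 0.65. USP53, a protein of the tight junction, rose by 0.72. CGNL1, the paralogue of CGN, was at or below 0.0634 RPKM in every library.

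Of 21 other polarity proteins tested, 1 was higher and 4 were lower, beside 14.7% and 21.8% of all genes. After scaling 5 were higher and 7 lower, beside 30.8% and 30.2%. PARD6A, a partner of PARD3, fell by 0.69, the Scribble-complex genes DLG3 and DLG4 each fell by 0.70, and FRMD4A, a scaffold of the Par complex, fell by 0.85. CDC42, the small GTPase that activates PARD6, rose by 0.52, and 57.1% of its exon bases are shared with another gene model on the same strand. LLGL1, the relative of LLGL2, had 7.0 and 8.28 RPKM in control and 6.56 and 7.39 RPKM in knockdown libraries and did not pass (log2 fold change −0.12, adjusted p = 0.627). The difference between LLGL1 and LLGL2 was not tested. SCRIB itself had a log2 fold change of −0.14 and did not pass (adjusted p = 0.574).

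**Figure D4:**
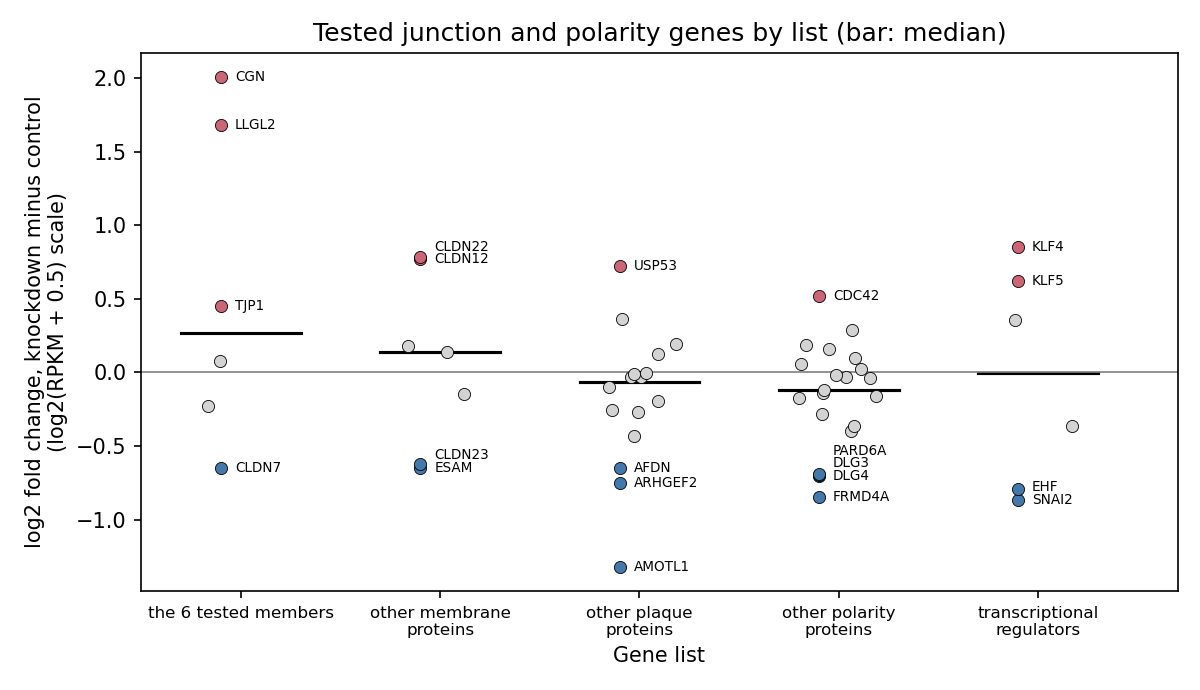
Log2 fold change (knockdown minus control, log2(RPKM + 0.5) scale) of each tested gene of the 6 members and of the lists of other membrane, plaque and polarity proteins and of regulators. Red and blue points passed as higher and lower, grey points did not pass and black bars are list medians. CGN and LLGL2 lie above every other gene drawn and AMOTL1 lies lowest.

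Of 6 tested transcription factors that control junction genes, 2 were higher and 2 were lower, beside 14.7% and 21.8% of all genes. After scaling 3 were higher and 3 lower, beside 30.8% and 30.2%. SNAI2, a Snail-family repressor that binds the E-box above, had 11.2 and 13.4 RPKM in control and 5.98 and 7.0 RPKM in knockdown libraries and fell by 0.87. SNAI1, of the same family, was listed too but had no values here. ZEB1 had a log2 fold change of −0.36 (adjusted p = 0.0920), and −0.29 after scaling (adjusted p = 0.00462). ZEB2 had 0.35 (adjusted p = 0.158), and 0.41 after scaling (adjusted p = 0.0139). With 0.944 and 1.00 RPKM in control and 1.32 and 1.44 RPKM in knockdown libraries, ZEB2 was, like CGN, tested only through its knockdown level. The Krüppel-like factors KLF4 and KLF5 rose by 0.85 and 0.62, and the epithelial factor EHF fell by 0.80. EHF kept its call whichever library was left out, and SNAI2, KLF4 and KLF5 each lost it at least once. GRHL2, an activator of CLDN4 and other epithelial genes, was listed at 0 in all 4 libraries, and so was TWIST1. These values stood beside those of CGN, CLDN1, CLDN4 and CLDN7 in the same libraries, and the part of any factor in them was not tested.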

How the data were processed

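RNA-seq libraries of LM2 cells, 2 control and 2 hnRNPM knockdown, were grouped by their titles. The authors deposited 1 table of RPKM values per Ensembl gene, with 1 column per library; 0 columns of per-sample values were left unused. Alignment was with Bowtie 0.12.7 to hg19, per the submitters' processing notes. The sources used here do not give the counting program, or how it treated strand and multiply mapped reads. Current symbols were found for 32172 IDs, names for 136 came from GENCODE 29, and 4217 had no name. The table held 0 genes of chromosomes 20, 21 and 22, which were not analysed here.

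From the deposited RPKM, log2(RPKM + 0.5) was fitted with limma 3.58.1 in R 4.3.3 on group alone, with a variance trend, for genes with a mean of at least 1 RPKM. Estimated reads come from RPKM steps and GENCODE 29 exon lengths, by which 82.6% of 37319 values under 20 reads were whole within 0.1 read; the estimates were that close to whole in all libraries for 4 of the 9 genes. They gave depth only, no count test. Depth differed between groups, since 1 read was worth 1.41 times as much RPKM in knockdown libraries. An exact permutation test of 2 against 2 libraries cannot go below 0.333, so none was run. The limma script was tested on simulated data. The alternatives were pseudocounts of 0.1 and 1, no minimum, a minimum of 5 RPKM, median-ratio scaling, no trend, a replicate block and each library left out; a minimum of 0.2 RPKM was added after the data were seen.

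Named genes are all 9, HNRNPM, the markers and, from each list, up to 6 genes past the threshold with the largest absolute log2 fold change; the 3 nearest profiles are given for the tested genes with the largest and smallest log2 fold change. Named outside that rule, after their values were seen, were LSR, CLDN3, CLDN19, CGNL1, LLGL1, SCRIB, ZEB2, GRHL2, TWIST1, ELP5, WWC2, OCLNP1, AC003688.1, AL591806.3, MPP7, TJP3, MICALL2, EPB41L5 and JAM3. NCAPD3 and SNAI1 were also named outside that rule. The 9 genes and the lists were chosen with earlier results of these data known. Promoters are RefSeq windows of GRCh38.p14, matched by symbol for 6 of the 9 genes.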

Additional observations from a re-analysis of the deposited data

How the results depend on the processing

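Genes called higher (2000) became 262 without a minimum level, 1047 at a minimum of 5 RPKM, 4192 with median-ratio scaling, 4650 with scaling and a minimum of 0.2 RPKM, and 759 to 1158 with 1 library left out. Genes called lower (2964) became 255, 1321 (minimum of 5 RPKM) and 4782 (scaling and 0.2 RPKM), and 1057 to 2007 with 1 library left out. Of the 9 genes, those called higher (3) became 1 of 2 tested at 5 RPKM, 5 with scaling and 0.2 RPKM, and 2 with any library left out. Those called lower (1) became 0 without a minimum and at 5 RPKM, 2 with scaling, and 0 to 1 with 1 library left out. The other listed genes called higher (4) became 0, 2, 12 and 14 without a minimum, at 5 RPKM, with scaling, and with scaling and 0.2 RPKM, and 1 to 3 with 1 library left out; those called lower (9) became 0, 3, 16 and 18, and 2 to 9. Beside the counts of 0 without a minimum, limma gave an unadjusted p below 0.05 for 1 of the 9 genes as lower, and for 7 and 18 of the other listed genes as higher and lower; at 5 RPKM it did so for 0 of the 9 as lower, and with 1 library left out for 1 each time. Fewer or more genes tested is part of the minimum's own construction, and the cause of the other changes was not tested; the median SE was 0.175 as deposited and 0.0544 after scaling. The sign of OCLN turned with scaling (0.0138), and ranged from −0.0880 to 0.0549 with 1 library left out; that of F11R ranged from −0.0505 to 0.209. Replicate numbers are the only link between groups: same-numbered deviations had a correlation of 0.0307 over 13627 genes. With the replicate number as a block, 3109 genes were higher and 4318 lower, 2 of the 9 genes were lower (PARD3 passed, adjusted p = 0.0415), and 8 and 15 of the other listed genes were higher and lower. Over 33 followed genes, 239 values under the alternatives that keep all libraries stayed on their side of the threshold with the same sign, 24 lost the call, 8 gained it and 2 turned; with 1 library left out the numbers were 91 kept, 38 lost and 3 turned. Leaving out 1 library leaves a lone sample in its group, which is then assumed to vary like the other group. Depth limits OCLN, CLDN1 and CLDN4 most, with 34 to 162 estimated reads per library.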

Other observations

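Some listed junction and polarity genes below the minimum of the main test had groups that did not overlap, chosen after their values were seen and not tested there. Other listed genes below it also had such groups and are not named. Among genes of the main test, 66.8% had groups that did not overlap, and no such share is given below its minimum. MPP7, a scaffold of the Crumbs and Scribble complexes, had 0.441 and 0.623 RPKM in control and 1.37 and 1.5 RPKM in knockdown libraries. TJP3, the gene of ZO-3 and a relative of TJP1, had 0.0286 and 0.0429 RPKM in control and 0.273 and 0.182 RPKM in knockdown libraries. In the other direction, MICALL2, which acts with RAB13 in bringing claudins and occludin to the junction, had 1.17 and 1.21 RPKM in control and 0.526 and 0.557 RPKM in knockdown libraries. EPB41L5, a Crumbs-complex protein, had 0.784 and 0.875 RPKM in control and 0.363 and 0.396 RPKM in knockdown libraries. JAM3, a relative of F11R, had 0.210 and 0.350 RPKM in control and 0.0619 and 0.0804 RPKM in knockdown libraries.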
